A study of Mus musculus with 12 samples.

Results

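The Arp2/3 complex, the machine that starts new actin filaments as branches on existing ones, was followed through 9 of its subunit genes in bulk RNA from mouse pituitary. The genes were found by symbol among the 55421 gene IDs of the count tables (Actr2, Actr3, Arpc1a, Arpc1b, Arpc2, Arpc3, Arpc4, Arpc5 and Arpc5l), and all 9 were kept by the filter on low counts. The set was chosen from the readout of 1 gene: Actr3 had a lower level in AA14-treated than in vehicle-treated mice with the control virus, and the question is whether the other subunits share that difference. For this reason the values of that comparison are given as a description, and nothing is read from the counts of calls printed for it.

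All libraries came from C57BL/6 mice with floxed Gpr101 alleles. In the libraries called ctrl_AA14 and ctrl_vehicle the mice carried Cga-ctrlAAV, a control virus, and received AA14, a ligand by the study's title, or vehicle for 1 week. In cre_AA14 and cre_vehicle the mice carried Cga-creAAV, a virus for cre recombinase, which cuts out floxed sequence, and received the same agents. The 4 groups had 3 libraries each. Cga is the gene of the alpha subunit of thyrotropin and the gonadotropins; the labels do not spell out its role in the virus, nor the age or number of the mice, nor whether each library is a separate mouse, so the spread between libraries may be technical. The design mentions dispersal to single cells and flow cytometry, and the labels do not say that cells were sorted.

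In the complex, ARP2 and ARP3, the products of Actr2 and Actr3, resemble actin monomers and together form the seed of the new filament. ARPC2 and ARPC4 hold the complex together and contact the mother filament, ARPC1 helps to bind activators, and ARPC3 and ARPC5 complete it. ARPC1 and ARPC5 each exist in a pair of forms encoded by separate genes (Arpc1a and Arpc1b, Arpc5 and Arpc5l), so a single complex holds 1 form of each. The complex is almost inactive until a protein of the WASP or WAVE families binds it. In secretory cells the branched actin network under the membrane takes part in endocytosis and in the movement and release of granules.

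Library totals ranged from 48693682 to 73388221 counts, and the subunits drew between 868 counts (Arpc1b in cre_vehicle 1) and 10540 counts (Arpc2 in ctrl_vehicle 3) in a library. Gpr101, the floxed gene, was at 0.901 to 2.57 CPM (counts scaled to library size) in cre_AA14, against 2.20 to 6.60 CPM in ctrl_AA14. It was at 1.29 to 4.3 CPM in cre_vehicle, against 1.22 to 16.1 CPM in ctrl_vehicle, and the ranges of each pair overlap. All 7 endocrine markers of the pituitary were detected, with summed levels of 168500 to 319500 CPM. Malat1, a nuclear-retained noncoding RNA, lay above 1000 CPM in 5 libraries, namely the 3 of ctrl_AA14, cre_vehicle 1 and cre_AA14 2. In these bulk samples, fewer cells of a type and less RNA per cell cannot be told apart.

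The stretches of DNA just before the transcription starts of 3 subunits are shown because Actr3, Arpc5 and Arpc3 had levels in ctrl_AA14 that did not overlap those in ctrl_vehicle and were about as far apart with any 1 library left out. Each is the 250 bases before the start, from RefSeq on GRCm38.p6, at chr1:125435728-125435977 on the minus strand for Actr3, chr1:152766292-152766541 on the plus strand for Arpc5 and chr5:122391628-122391877 on the plus strand for Arpc3. Capitals mark matches on either strand to GGGCGG (the GC box), CCAAT (the box of that name), TGACG (the short core of the cAMP response element), TATAAA and the CArG box, the element of serum response factor.
Actr3: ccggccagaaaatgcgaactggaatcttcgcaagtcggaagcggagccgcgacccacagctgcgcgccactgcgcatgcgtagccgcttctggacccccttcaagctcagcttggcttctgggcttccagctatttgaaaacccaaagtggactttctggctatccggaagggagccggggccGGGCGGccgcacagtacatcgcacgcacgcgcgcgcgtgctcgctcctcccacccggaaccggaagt
Arpc5: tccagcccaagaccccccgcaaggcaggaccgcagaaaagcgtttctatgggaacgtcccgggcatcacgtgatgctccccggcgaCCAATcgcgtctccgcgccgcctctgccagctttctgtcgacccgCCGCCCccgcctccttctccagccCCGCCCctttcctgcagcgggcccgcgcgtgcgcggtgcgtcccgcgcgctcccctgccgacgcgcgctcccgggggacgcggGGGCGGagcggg
Arpc3: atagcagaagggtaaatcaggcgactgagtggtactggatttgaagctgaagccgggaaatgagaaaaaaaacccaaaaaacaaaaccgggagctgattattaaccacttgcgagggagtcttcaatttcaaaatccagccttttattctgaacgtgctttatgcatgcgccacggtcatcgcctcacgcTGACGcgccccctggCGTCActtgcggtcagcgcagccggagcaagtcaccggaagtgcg

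In these windows Actr3 had 1 GC box, beginning 67 bases before the start. Arpc5 had 3 GC boxes and 1 CCAAT box. Arpc3 held neither box and had 2 short cores of the cAMP response element, beginning 60 and 45 bases before the start. Of the 8 subunits with an entry in the promoter table, 5 held a GC box (Actr2, Actr3, Arpc1b, Arpc2 and Arpc5), 2 held CCAAT (Actr2 and Arpc5), 2 held the short core (Arpc1a and Arpc3), 1 held the CArG box (Arpc4), and 0 held TATAAA or the full element TGACGTCA, which contains the short core. Among 32851 mouse promoter windows of the same length the GC box was found in 32.7%, CCAAT in 33.8%, the short core in 17.8%, the CArG box in 1.47%, TATAAA in 12.4% and the full element in 1.55%. These matches describe letters and do not show that a factor binds there.

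Of the other 8 subunits, Arpc5 was also lower in every ctrl_AA14 library, Arpc3 was higher in every one, Arpc4 and Arpc1b had lower means that leaned on 1 vehicle library, and Actr2, Arpc1a, Arpc2 and Arpc5l lay close to their vehicle levels. No overlap between the 2 groups in the lower direction was found for 3 of 9 subunits (Actr3, Arpc4 and Arpc5), where 20.1% of all 22630 genes tested had none, and in the higher direction for 1 of 9 (Arpc3), where 17.6% had none. Without Actr3, which chose the set, 2 of 8 (25.0%) were lower, a share near that of all genes. The median log2 fold change (AA14 over vehicle) of the 9 subunits was -0.07, and that of all genes -0.02.

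**Figure D1:**
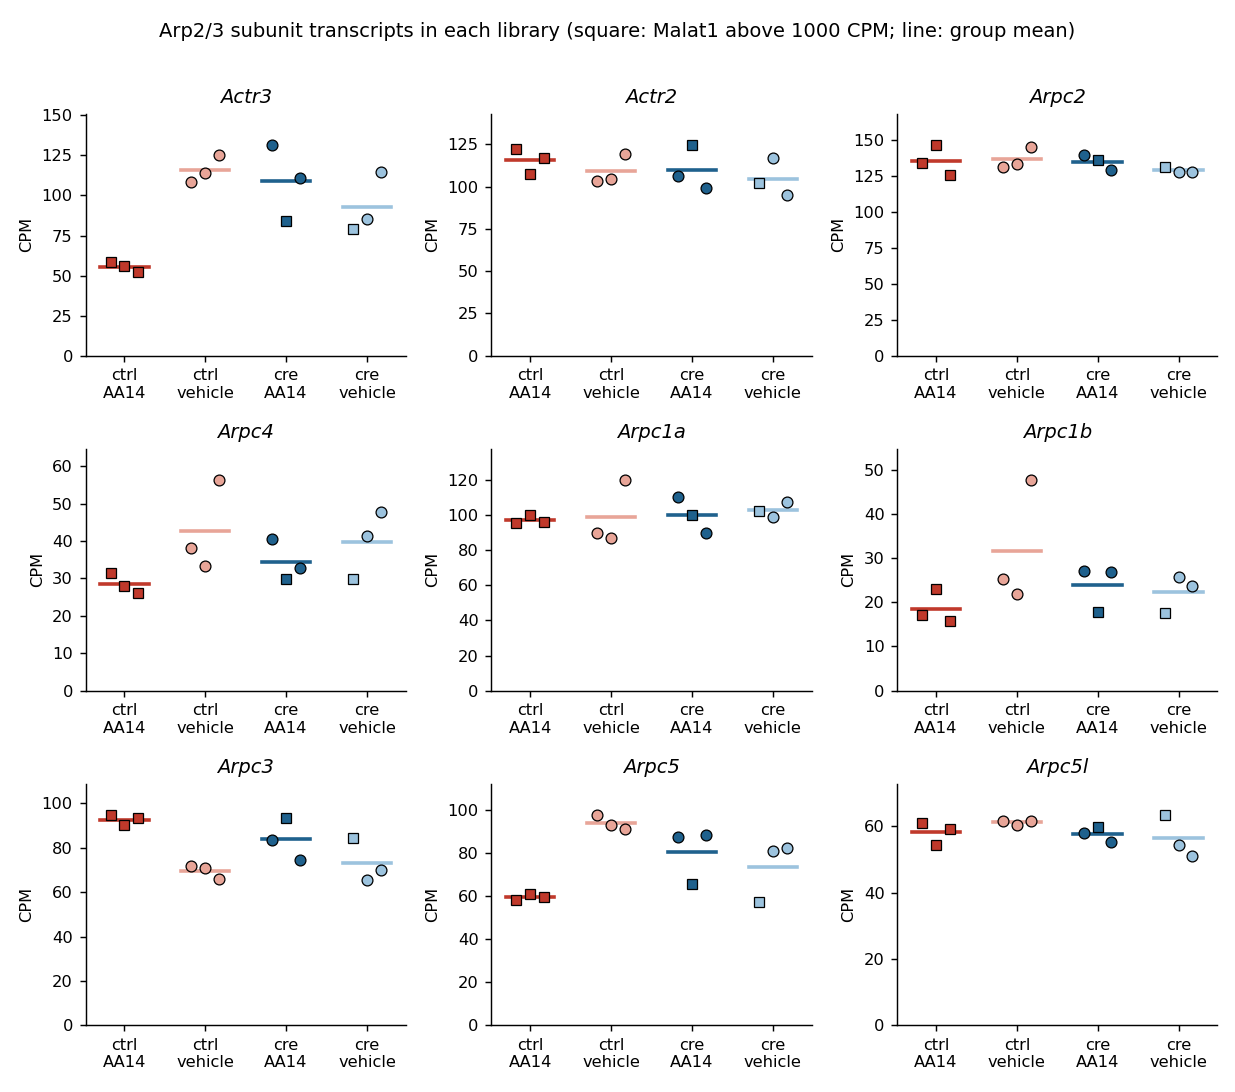
CPM (counts scaled to library size, linear axis) of each of the 9 subunits in the 12 libraries, with points for libraries (squares where Malat1 was above 1000 CPM) and a line for the mean of each group of 3. Actr3 and Arpc5 sit lower and Arpc3 higher in ctrl_AA14 than in ctrl_vehicle, while Arpc2 stays between 125.6 and 146.0 CPM throughout.

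Actr3 (ENSMUSG00000026341, chromosome 1, 125392905 to 125435727 on the minus strand of GRCm38) encodes ARP3, the larger of the actin-like pair. It was at 58.2, 56.2 and 52.1 CPM in ctrl_AA14 and at 108.7, 114.3 and 125.0 CPM in ctrl_vehicle. The lowest vehicle library was thus well above the highest AA14 library, and the means of 55.5 ± 3.14 CPM in ctrl_AA14 and 116 ± 8.31 CPM in ctrl_vehicle (SD, n = 3 each) gave a log2 fold change of -1.06 (standard error, SE, 0.18). In cre mice Actr3 was at 131.3, 84.1 and 111.2 CPM with AA14 and at 79.0, 85.4 and 114.4 CPM with vehicle. Every cre library exceeded every ctrl_AA14 library, and the 2 cre groups covered nearly the same range.

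Actr2 (ENSMUSG00000020152, chromosome 11, 20062304 to 20112913, minus strand) encodes ARP2, the partner of ARP3 in the seed, and did not follow Actr3. Its levels were 122.3, 107.6 and 116.8 CPM in ctrl_AA14 and 103.5, 104.6 and 119.4 CPM in ctrl_vehicle, which overlap, with a log2 fold change of 0.08 (SE 0.13, 95% interval -0.21 to 0.38). In every library of cre_AA14 and cre_vehicle Actr2 was between 94.9 and 124.4 CPM. The log2 ratio of Actr3 to Actr2 counts was -1.05 ± 0.11 in ctrl_AA14 and 0.09 ± 0.03 in ctrl_vehicle (SD, n = 3 each), and -0.03 ± 0.46 in cre_AA14 and -0.19 ± 0.39 in cre_vehicle. In the control groups this ratio reuses the Actr3 values that chose the set, so their difference in it is a description only.

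The scaffold subunits ARPC2 and ARPC4 wrap around each other in the core. Arpc2 (ENSMUSG00000006304, chromosome 1, 74236084 to 74268209, plus strand) was the steadiest of the 9, with its highest library 1.16 times its lowest. It was at 133.5, 146.0 and 125.6 CPM in ctrl_AA14 and 130.7, 133.2 and 144.7 CPM in ctrl_vehicle, with a log2 fold change of -0.01 (SE 0.11, 95% interval -0.25 to 0.23). Arpc4 (ENSMUSG00000079426, chromosome 6, 113378115 to 113390448, plus strand) varied more, at 31.5, 28.1 and 26.0 CPM in ctrl_AA14 and 38.3, 33.4 and 56.3 CPM in ctrl_vehicle. These groups did not overlap, but the third vehicle library stood above the other 2, and the log2 fold change of -0.58 (SE 0.23) was -0.33 without it. In cre_AA14 Arpc4 was at 40.5, 29.9 and 32.8 CPM and in cre_vehicle at 29.8, 41.4 and 47.7 CPM. Its annotated exons share 283 bp with those of Ttll3 on the same strand, so its count is uncertain to that extent.

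The ARPC1 forms bind activators through a propeller-shaped domain, and ARPC1B predominates in blood cells, where its loss causes an immune deficiency in humans. Arpc1a (ENSMUSG00000029621, chromosome 5, 145083830 to 145108761, plus strand) was at 95.7, 100.2 and 96.0 CPM in ctrl_AA14 and 90.1, 87.0 and 120.1 CPM in ctrl_vehicle, with a log2 fold change of -0.03 (SE 0.14). Its neighbour Arpc1b (ENSMUSG00000029622, 145114215 to 145130705, plus strand) was at 17.1, 22.9 and 15.6 CPM in ctrl_AA14 and 25.2, 21.9 and 47.6 CPM in ctrl_vehicle. The groups overlapped, and the log2 fold change of -0.77 (SE 0.30) was -0.34 without the third vehicle library. Arpc1b was the most variable subunit, with its highest library 3.05 times its lowest. Its exons share 931 bp with Pdap1 on the opposite strand, and whether counting used strand is not given in the sources used here.

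The third ctrl_vehicle library also had 2523 CPM of 8 summed oligodendrocyte markers and 292.6 CPM of the hypothalamic hormone transcript Avp. The oligodendrocyte sum also reached 782.5 CPM in ctrl_AA14 1, and it was 3393 CPM in cre_vehicle 2. It was at most 474.5 CPM elsewhere. Without these 3 libraries the log2 fold changes in control mice were -0.26 for Arpc1b and -0.37 for Arpc4, against -1.01 for Actr3, -0.63 for Arpc5 and 0.39 for Arpc3. This fit rests on fewer libraries in each control group. Its SEs were 0.29 for Arpc1b, 0.26 for Arpc4, 0.25 for Actr3, 0.22 for Arpc5 and 0.18 for Arpc3. The control libraries left are among those that chose Actr3, so these values are a description. The part of brain tissue in the subunit levels was not tested.

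Arpc3 (ENSMUSG00000029465, chromosome 5, 122391878 to 122414184, plus strand) encodes the subunit that sits against ARP3, and its level ran opposite to that of Actr3. It was at 94.7, 90.1 and 93.2 CPM in ctrl_AA14 and 71.8, 70.9 and 65.9 CPM in ctrl_vehicle, with no overlap. The means of 92.6 ± 2.36 CPM in ctrl_AA14 and 69.5 ± 3.15 CPM in ctrl_vehicle gave a log2 fold change of 0.41 (SE 0.13). With any 1 control library left out this value stayed between 0.38 and 0.44. The log2 ratio of Actr3 to Arpc3 counts was -0.74 ± 0.09 in ctrl_AA14 and 0.73 ± 0.17 in ctrl_vehicle. This ratio too reuses the Actr3 values that chose the set and is a description only.

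ARPC5 is the smallest and most loosely placed subunit, next to ARP2, and its 2 forms give complexes with different branching activity. Arpc5 (ENSMUSG00000008475, chromosome 1, 152766542 to 152775597, plus strand) was at 58.3, 61.2 and 59.8 CPM in ctrl_AA14 and at 97.8, 92.9 and 91.3 CPM in ctrl_vehicle. Libraries within each group were close, and the means of 59.8 ± 1.46 CPM in ctrl_AA14 and 94.0 ± 3.38 CPM in ctrl_vehicle gave a log2 fold change of -0.65 (SE 0.16), between -0.69 and -0.62 with any 1 control library left out. Arpc5l (ENSMUSG00000026755, chromosome 2, 39005348 to 39015877, plus strand) was at 61.0, 54.4 and 59.3 CPM in ctrl_AA14 and 61.6, 60.4 and 61.5 CPM in ctrl_vehicle, with a log2 fold change of -0.07 (SE 0.12). In cre_AA14 Arpc5 was at 87.4, 65.6 and 88.5 CPM and in cre_vehicle at 57.3, 81.3 and 82.4 CPM, while Arpc5l lay between 51.2 and 63.4 CPM in all 6 cre libraries.

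**Figure D2:**
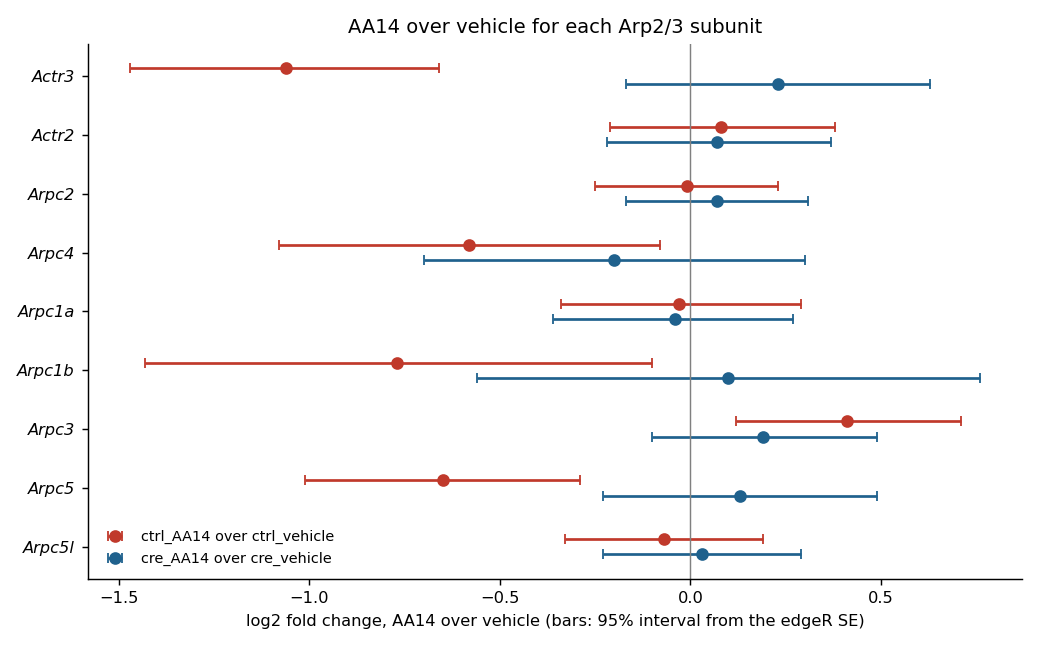
Log2 fold change of each subunit for AA14 over vehicle in control mice and in cre mice, with points for the estimate of edgeR and bars for its 95% interval. In control mice Actr3 (-1.06) and Arpc3 (0.41) lie at the ends, and in cre mice all 9 intervals include 0.

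By edgeR 0 of 9 subunits were called in control mice at an adjusted p under 0.05, where 0.00442% of all genes were called. At an unadjusted p under 0.05, 4 subunits were lower (Actr3, Arpc5, Arpc4 and Arpc1b, beside 15.8% of all genes) and 1 was higher (Arpc3, beside 8.03%). The other tools called more genes and more subunits. DESeq2, limma-voom and an edgeR fit of the control libraries alone each called 3 subunits, Actr3, Arpc5 and Arpc3, beside 13.4%, 15.1% and 10.6% of the genes they tested. Since Actr3 was chosen from this comparison, nothing is read from these counts.

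AA14 in cre mice was the comparison that rests on libraries not used to choose Actr3, and no subunit passed the test there. By edgeR 0 of 9 subunits were called, beside 0% of all genes, and all 9 had an adjusted p of 1.00. DESeq2 and limma-voom also called 0 of 9, beside 0.0627% and 0% of genes, as did the edgeR fit of the cre libraries alone (0%). At an unadjusted p under 0.05 there were 0 subunits lower and 0 higher, where 1.09% and 1.20% of genes were, and 0 subunits had groups without overlap, where 2.54% of genes were lower and 3.32% higher.

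The sizes that these cre libraries allow differ between subunits. Actr3 had a log2 fold change of 0.23 (95% interval -0.17 to 0.63, higher in 1 of 3 cre_AA14 libraries than all cre_vehicle libraries), which does not reach the -1.06 of control mice. The interval of Arpc5 was -0.23 to 0.49 around 0.13, that of Arpc3 -0.10 to 0.49 around 0.19, that of Arpc4 -0.70 to 0.30 around -0.20 and that of Arpc1b -0.56 to 0.76 around 0.10. For Arpc3 and Arpc4 the interval holds the value of control mice, so a difference of that size is not excluded. The remaining 4 subunits lay between -0.04 and 0.07. The median of the 9 was 0.07, beside 0.00 for all genes.

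The difference between both AA14 effects, cre minus control, shares the control libraries with the comparison that chose Actr3 and is given as a description. It was 1.29 (SE 0.26) for Actr3, 0.86 (SE 0.43) for Arpc1b, 0.78 (SE 0.23) for Arpc5, 0.37 (SE 0.32) for Arpc4 and -0.22 (SE 0.19) for Arpc3 on the log2 scale, and within 0.10 of 0 for the other 4. By edgeR 0 of 9 were called, beside 0.00442% of genes. At an unadjusted p under 0.05, 2 were positive (Actr3 and Arpc5, beside 4.86% of genes) and 0 negative (beside 2.17%). DESeq2 called 1 of 9, Actr3, beside 0.116% of genes, and limma-voom 0 of 9, beside 0%. As the control libraries also chose Actr3, nothing is read from these counts.

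Cre and control mice were also set side by side within each treatment. Both comparisons share libraries with the one that chose Actr3, so they are a description and nothing is read from their counts of calls. For cre_AA14 over ctrl_AA14 the log2 fold change of Actr3 was 0.97 (SE 0.18) and that of Arpc5 was 0.43 (SE 0.16), and these 2 were the subunits without overlap in the higher direction, beside 7.30% of genes (0 of 9 in the lower, beside 6.76%). For cre_vehicle over ctrl_vehicle Actr3 had -0.32 (SE 0.18), with overlap, and the subunits without overlap were Arpc5 at -0.35 (SE 0.16) and Arpc2 at -0.08 (SE 0.11), both lower, beside 2.53% of genes (0 of 9 higher, beside 2.39%). For Arpc2 the gap was minimal, since the highest cre_vehicle and the lowest ctrl_vehicle library both round to 130.7 CPM. By edgeR 0 of 9 were called in either, beside 0% of genes under AA14 and 0.00442% under vehicle. At an unadjusted p under 0.05, 2 were higher under AA14 (Actr3 and Arpc5, beside 7.08% of genes) and 0 lower (1.44%), while under vehicle 0 were higher (0.932%) and 0 lower (1.06%). DESeq2 called 1 of 9 under AA14, Actr3, beside 0.152% of genes, and 0 of 9 under vehicle, beside 0.0851%. By limma-voom 0 of 9 were called in either, beside 0% of genes under AA14 and 0.00884% under vehicle.

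The same subunits moved with Malat1. In the 5 libraries with Malat1 above 1000 CPM, Actr3 ranged from 52.1 to 84.1 CPM, and in the other 7 from 85.4 to 131.3 CPM. Arpc5 was at 57.3 to 65.6 CPM in those 5 and 81.3 to 97.8 CPM in the other 7, and Arpc3 at 84.3 to 94.7 CPM in those 5 and 65.4 to 83.4 CPM in the other 7. Subunits lower without overlap in the 5 libraries were Actr3, Arpc4 and Arpc5 (3 of 9, beside 13.1% of all genes), and Arpc3 was higher (1 of 9, beside 9.23%). The 5 libraries include all 3 of ctrl_AA14, and the other 7 include all 3 of ctrl_vehicle. This split thus reuses the values that chose Actr3, so it is a description and nothing is read from its counts.

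**Figure D3:**
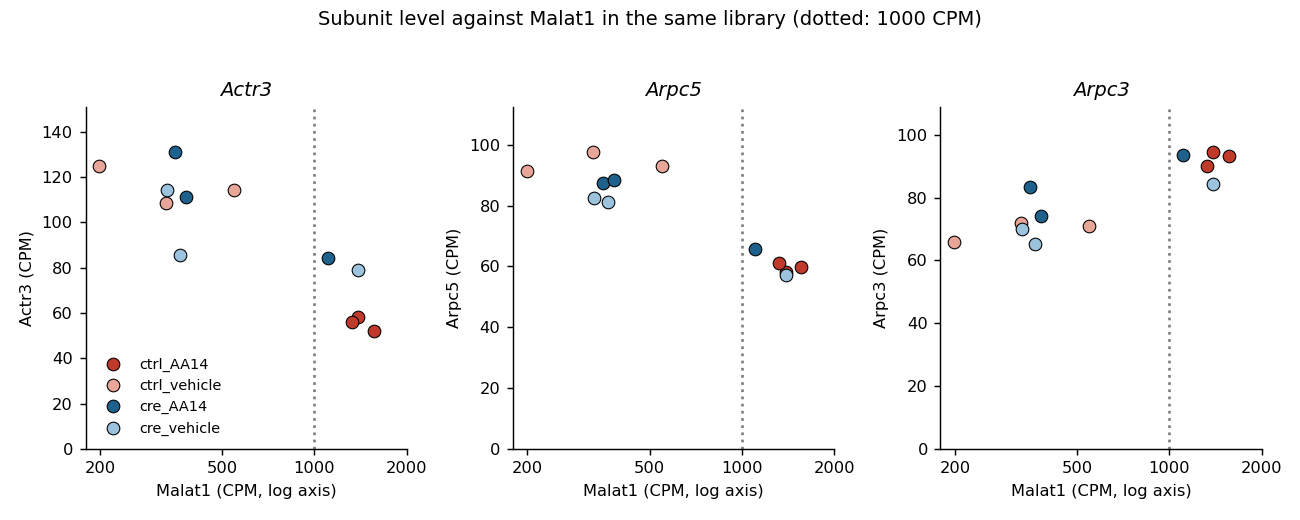
CPM of Actr3, Arpc5 and Arpc3 (vertical axes) against CPM of Malat1 (horizontal axis, log scale) in the 12 libraries, coloured by group. To the right, with the 3 ctrl_AA14 libraries, lie cre_AA14 2 (Actr3 84.1 CPM, Arpc5 65.6 CPM, Arpc3 93.5 CPM) and cre_vehicle 1 (Actr3 79.0 CPM, Arpc5 57.3 CPM, Arpc3 84.3 CPM).

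Among the 6 cre libraries alone, the 2 with high Malat1, 1 of each treatment, had lower Actr3 (79.0 to 84.1 CPM, against 85.4 to 131.3 CPM in the other 4). Arpc1b, Arpc4 and Arpc5 were lower without overlap too (4 of 9 in all, beside 21.9% of genes), and Arpc3 and Arpc5l were higher (2 of 9, beside 20.7%). The gap of Actr3 in the cre libraries was narrow, and no cre library with high Malat1 reached the ctrl_AA14 levels of 52.1 to 58.2 CPM. Arpc5 in cre_vehicle 1, in contrast, at 57.3 CPM, was below all 3 ctrl_AA14 libraries.

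A fit with a term for Malat1 above 1000 CPM, which these 2 cre libraries inform, gave a log2 fold change in control mice of -0.63 (SE 0.19) for Actr3, -0.19 (SE 0.12) for Arpc5, 0.13 (SE 0.14) for Arpc3, -0.14 (SE 0.28) for Arpc4 and -0.22 (SE 0.38) for Arpc1b. In control mice high Malat1 coincides with AA14, so the treatment and this library state cannot be told apart there. In cre mice, with the 5 libraries left out, AA14 over vehicle gave 0.27 (SE 0.19) for Actr3, 0.10 (SE 0.13) for Arpc5 and 0.21 (SE 0.14) for Arpc3, from 2 libraries a group.

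Markers of some other cell types also differed between the control groups. Summed macrophage markers (12 of 12 detected) were at 185 to 228 CPM in ctrl_AA14 and 219 to 313 CPM in ctrl_vehicle. Posterior lobe markers (9 of 9) were at 95.1 to 127.9 CPM in ctrl_AA14 and 143 to 537.5 CPM in ctrl_vehicle, and stem and folliculostellate markers (8 of 8) at 149.5 to 253 CPM in ctrl_AA14 and 257 to 930 CPM in ctrl_vehicle. Lymphocyte and plasma cell markers (12 of 12) were at 24.9 to 78.4 CPM in ctrl_AA14 and 15.5 to 22.0 CPM in ctrl_vehicle. Of these, macrophage sums overlapped between the groups and the other 3 did not. In cre_vehicle 1 and cre_AA14 2, the cre libraries with high Malat1, posterior lobe sums were 101.7 and 93.2 CPM, against 139.4 to 185.7 CPM in the other cre libraries. Stem and folliculostellate sums were 171.6 and 161.9 CPM there, against 308.1 to 945 CPM. Lymphocyte and plasma cell sums were 57.35 and 40.85 CPM, against 19.05 to 26.23 CPM. Endothelial (8 of 8), mural and fibroblast (10 of 10), neuron (8 of 8) and red cell (5 of 5) sums overlapped between ctrl_AA14 and ctrl_vehicle. No marker of any list was at 0 in a group. Their part in the subunit levels was not tested.

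Levels of different subunits can be compared only per length. Per kilobase of annotated exon, Arpc2 was highest at 61.8 to 71.8 CPM per kb over the 12 libraries, followed by Arpc1a at 33.9 to 46.8, Arpc5 at 25.2 to 43.0 and Arpc3 at 23.7 to 34.3 CPM per kb. Actr3 at 11.2 to 28.4, Actr2 at 18.2 to 23.9, Arpc4 at 11.2 to 24.2 and Arpc5l at 11.4 to 14.1 CPM per kb followed with overlapping ranges, and Arpc1b was lowest at 3.06 to 9.31 CPM per kb. With the length of the longest transcript instead, Arpc3 was at 72.7 to 105 CPM per kb and its range held that of Arpc2 (87.3 to 101). Arpc1b was then at 5.03 to 15.3 CPM per kb, which overlaps Arpc5l (12.3 to 15.2) and Arpc4 (11.5 to 24.8). The rank of Arpc3 thus depends on the length used. Arpc1b had the lowest median of the subunits with both lengths (4.55 and 7.49 CPM per kb), but its range was separate only with the exon length.

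Within each pair of forms the balance per exon length could be followed. Arpc5l made up 34.6%, 31.0% and 33.4% of the Arpc5l and Arpc5 total in ctrl_AA14, and 24.2%, 24.8% and 25.4% in ctrl_vehicle. The higher share in ctrl_AA14 came with lower Arpc5 and with Arpc5l near its vehicle level. In cre_AA14 it was 25.1%, 31.5% and 24.0% and in cre_vehicle 35.9%, 25.3% and 23.9%, so the libraries with high Malat1 were the high ones there. Arpc1b made up 8.22%, 10.3% and 7.56% of the Arpc1b and Arpc1a total in ctrl_AA14 and 12.3%, 11.2% and 16.6% in ctrl_vehicle. Those groups did not overlap in share, but 10.3% and 11.2% were close, and Arpc1b itself overlapped between them in level. Its count is also uncertain through the exons shared with Pdap1. Exons of Arpc5l share 62 bp with Wdr38 on the same strand and 62 bp with Rpl35 on the opposite strand. Arpc1a was the predominant form in all 12 libraries.

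Actr3b, which encodes a second form of ARP3 and is not among the 9 subunits, was at 37.2, 37.7 and 20.0 CPM in ctrl_AA14 and 30.1, 29.3 and 33.0 CPM in ctrl_vehicle. Its share of the Actr3b and Actr3 total per exon length was 54.9%, 56.2% and 42.3% in ctrl_AA14 and 34.6%, 32.9% and 33.5% in ctrl_vehicle. Actr3b overlapped between these groups in level, so the shares differed mainly through Actr3. In cre_AA14 the share was 29.7%, 44.3% and 35.8% and in cre_vehicle 45.2%, 37.2% and 33.8%. With the length of the longest transcript instead, the share was 44.6%, 45.9% and 32.6% in ctrl_AA14 and 25.9%, 24.4% and 25.0% in ctrl_vehicle. Whether Actr3b made up the larger part in ctrl_AA14 thus depends on the length used.

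**Figure D4:**
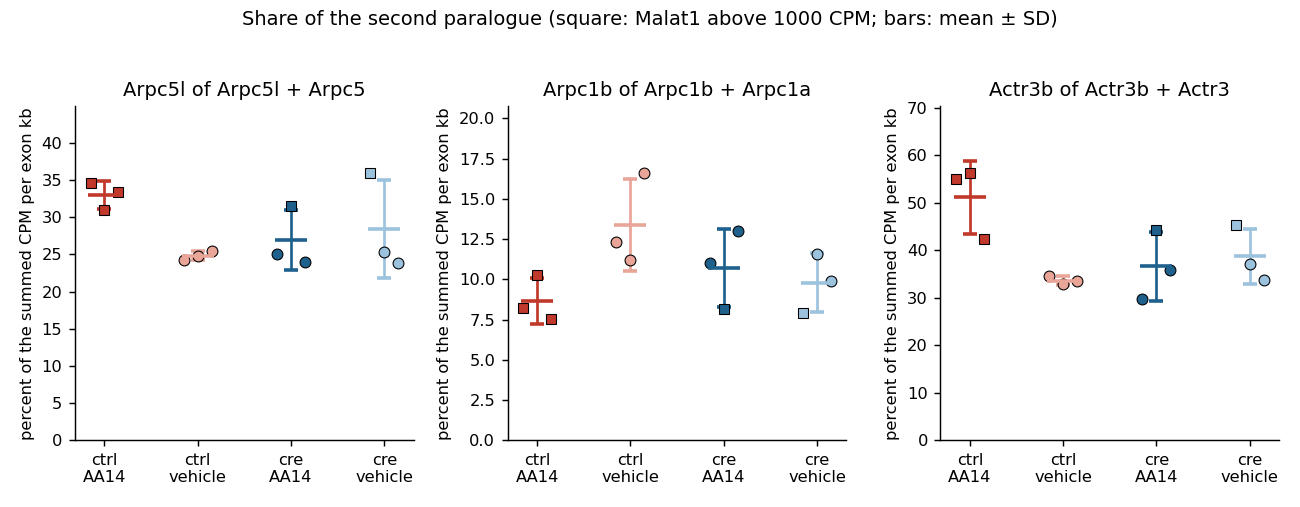
Share (percent, per exon length) of Arpc5l, Arpc1b and Actr3b in the total with their partner form in the 12 libraries, with points for libraries (squares where Malat1 was above 1000 CPM) and bars for the mean and SD of each group of 3. The Arpc5l share was 33.0 ± 1.85% in ctrl_AA14 and 24.8 ± 0.62% in ctrl_vehicle, and the Actr3b share 51.1 ± 7.7% in ctrl_AA14 and 33.6 ± 0.877% in ctrl_vehicle. With the length of the longest transcript, which is not drawn, the Actr3b share was 41.1 ± 7.32% in ctrl_AA14 and 25.1 ± 0.74% in ctrl_vehicle.

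The GC content of the longest transcript was 43.8% for Actr3, 46.2% for Arpc5 and 49.8% for Arpc3, within a range over the subunits of 40.3% (Actr2) to 53.1% (Arpc4). The part of GC content in the subunit levels was not tested.

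Pearson's r of log2(CPM + 0.5) over the 12 libraries was used to find genes whose pattern was most like that of Actr3, among the 10183 genes whose mean reached 10 CPM. The closest were Otulin (r = 0.97), which removes linear ubiquitin chains, Slc35g1 (0.96), a membrane transporter gene, Gorasp1 (0.96), which encodes a Golgi stacking protein, Btbd9 (0.95) and Macrod1 (0.95), an ADP-ribose hydrolase. Otulin was at 12.3, 13.5 and 9.3 CPM in ctrl_AA14 and 25.3, 25.9 and 24.0 CPM in ctrl_vehicle, with all cre libraries between 16.5 and 28.6 CPM. Among the subunits Arpc5 came closest (r = 0.88, place 314), then Arpc4 (0.74), Arpc1b (0.68), Arpc1a (0.23), Arpc2 (0.08), Arpc5l (-0.06), Actr2 (-0.43) and Arpc3 (-0.72). The libraries behind these values share the treatment groups and the Malat1 state, and r is a description only.

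The genes that drive, restrain or work beside the complex were counted in 8 lists of 84 genes in all, and 84 were tested. Their values in control mice come from the comparison that chose Actr3, so they too are a description. By edgeR 0 of 84 passed for AA14 in control mice, beside 0.00442% of all genes. At an unadjusted p under 0.05, 31 (36.9%) were lower and 1 (1.19%) higher, beside 15.8% and 8.03% of all genes. DESeq2 called 16 (19.0%), beside 13.4% of genes, and limma-voom 17 (20.2%), beside 15.1%. In cre mice 0 of 84 passed, with 0 at an unadjusted p under 0.05 and 0 called by DESeq2 or limma-voom. In control mice 59 were negative and 25 positive, with a median log2 fold change of -0.26, and 31 (36.9%) were lower and 3 (3.57%) higher without overlap, where 20.1% and 17.6% of all genes were. In cre mice 46 were negative and 38 positive with a median of -0.03, and 1 (1.19%) was lower and 3 (3.57%) higher without overlap, beside 2.54% and 3.32% of all genes.

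**Figure D5:**
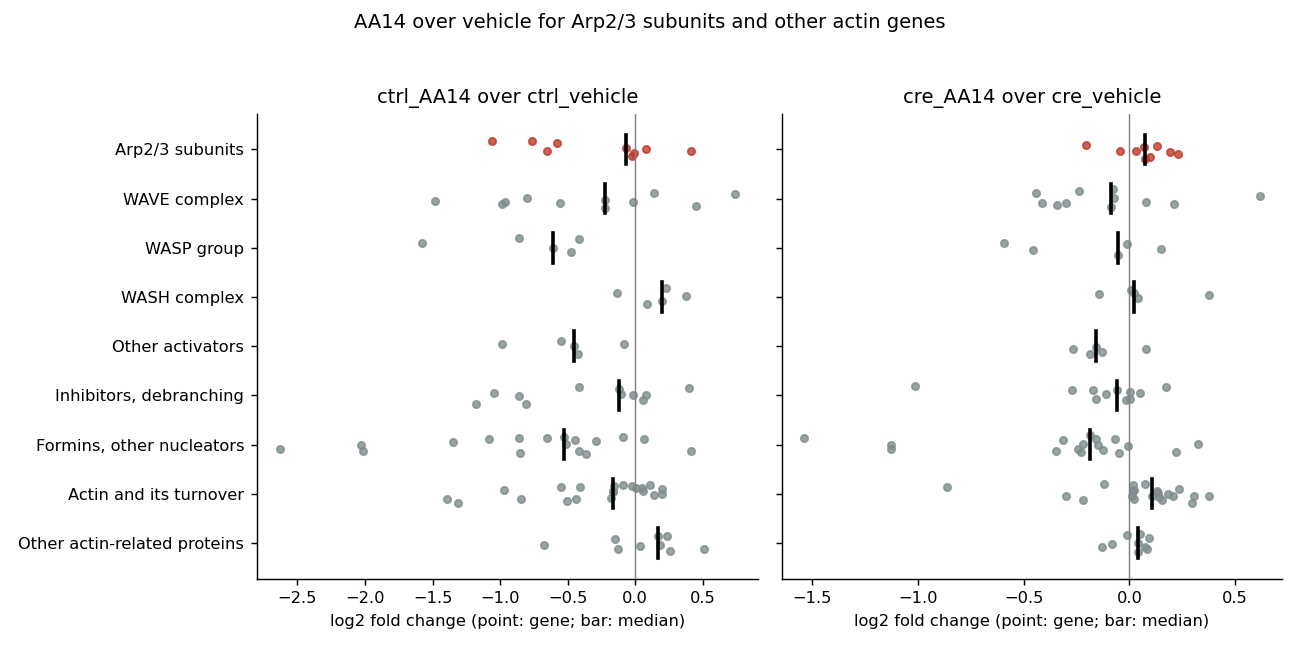
Log2 fold change of each member of the subunit list and of the 8 lists of actin regulators, for AA14 over vehicle in control mice and in cre mice, with points for genes and a line for the list median. In control mice the WASP and formin lists have medians of -0.61 and -0.53, and the WASH list 0.20.

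All 5 genes of the WASP group (WASP proteins and their WIP partners) were lower without overlap in ctrl_AA14, beside 20.1% of all genes. Their median was -0.61. Of the 11 genes of the WAVE complex, which activates Arp2/3 at the cell edge, 8 were negative and 3 positive, with a median of -0.23. Without overlap 3 (27.3%) were lower and 1 (9.09%) higher, beside 20.1% and 17.6% of all genes. Wasf2 (WAVE2) was at 26.1, 26.2 and 22.4 CPM in ctrl_AA14 and 52.8, 43.5 and 51.9 CPM in ctrl_vehicle, with no overlap and a log2 fold change of -0.99 (SE 0.25). In the cre libraries with high Malat1 it was at 29.4 CPM (cre_AA14 2) and 28.7 CPM (cre_vehicle 1), against 46.0 to 53.2 CPM in the other cre libraries. In that split of the cre libraries 21.9% of all genes were lower without overlap, so Wasf2 was 1 of many. Of the WASH complex, which activates Arp2/3 on endosomes, 4 of 5 genes were positive in control mice with a median of 0.20, and 0 were without overlap. Other activators, cortactin among them, had 5 of 5 negative with a median of -0.46.

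Genes that restrain or dismantle branches, coronins and GMF proteins among them, had 8 of 11 negative with a median of -0.12, and 4 (36.4%) were lower without overlap, beside 20.1% of all genes. Coro2b, a coronin, was at 28.8, 28.0 and 26.5 CPM in ctrl_AA14 and 55.8, 47.5 and 68.7 CPM in ctrl_vehicle (log2 fold change -1.05, SE 0.29). It was at 24.2 CPM in cre_AA14 2 and 33.1 CPM in cre_vehicle 1, both with high Malat1, against 44.5 to 62.4 CPM in the other cre libraries. Formins and other nucleators, which start unbranched filaments, had 15 of 17 negative with a median of -0.53, and 10 (58.8%) were lower without overlap. Diaph1, a formin, was at 33.2, 36.8 and 24.5 CPM in ctrl_AA14 and 56.0, 51.1 and 64.4 CPM in ctrl_vehicle (log2 fold change -0.86, SE 0.23). Its level was 36.5 CPM in cre_AA14 2 and 42.4 CPM in cre_vehicle 1, against 48.7 to 62.8 CPM in the other cre libraries. Coro2b and Diaph1 were thus among the 21.9% of all genes that were lower without overlap in this split.

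Of 21 genes of filament turnover, cofilin and profilin genes among them, 14 were negative with a median of -0.16, and 5 (23.8%) were lower without overlap, a share near the 20.1% of all genes. The 9 other actin-related proteins, namely the product of Actr3b and subunits of dynactin and of chromatin remodelers, had 6 positive with a median of 0.17. The 5 nuclear-retained RNAs, Malat1 among them, summed to 6461 to 7436 CPM in ctrl_AA14, against 1677 to 3817 CPM in ctrl_vehicle, and their part in the regulator levels was not tested.

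In cre mice no regulator passed. Washc3, a WASH subunit, was at 31.2, 35.0 and 33.2 CPM in cre_AA14 and 26.7, 22.3 and 27.5 CPM in cre_vehicle, higher in 3 of 3 libraries (log2 fold change 0.38, SE 0.18, adjusted p = 1.00). Diaph3 and Dstn were higher without overlap too, making 3.57% of the 84 regulators, beside 3.32% of all genes. Abi3 was lower without overlap (1.19%, beside 2.54% of all genes). These shares were near or below those of all genes.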

How the data were processed

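For 12 libraries, tables of whole-number counts were deposited. TRIzol RNA went into NEBNext Ultra libraries, which were read in pairs and mapped with HISAT2 2.0.0, per the labels' protocols. The genome build GRCm38, featureCounts 1.5.0-p3 and DESeq 1.8.3 are named in, and known only from, the submitters' processing notes. Annotation release, strand setting and treatment of shared reads were not given in the sources used here. Of 55421 IDs, 55154 matched a symbol, and the others took no more than 0.0135% of any library. Positions, exon lengths and GC content are from a GENCODE annotation of GRCm38.

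Genes were filtered with filterByExpr in edgeR 4.0.16 (R 4.3.3), which left 22630, and scaled with TMM. Quasi-likelihood F tests were run with 4 group means and all 12 libraries, and p was adjusted over all genes (Benjamini-Hochberg, 0.05). The SE was taken as |log2 fold change| over the root of F. Intervals are 95% and unadjusted. The common biological coefficient of variation was 0.445. Totals were 48693682 to 73388221 counts. These steps were also run on simulated counts. The outcome is not given here, so the size of change that the tests could detect is not shown. The 24 alternatives included DESeq2 1.42.0, limma-voom (limma 3.58.1), other size factors and filters, a replicate block, a Malat1 term and libraries left out. The subunits and gene lists were chosen with earlier results of these data known. All 9 subunits are named; of each regulator list and comparison, the 2 genes of smallest unadjusted p above 1 CPM qualified, and a part of them is given. A further gene list is not reported here. Malat1, Avp and Actr3b were named for their values in single libraries or as a second form.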

Additional observations from a re-analysis of the deposited data

How the results depend on the processing

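Of 24 alternatives, each that gave a value for AA14 in control mice kept the signs of the log2 fold changes of Actr3, Arpc5 and Arpc3. With 1 library left out at a time, edgeR called 0 subunits in each comparison, and the median over the 9 subunits lay between -0.12 and -0.07 for AA14 in control mice, 0.03 and 0.12 for AA14 in cre mice, 0.07 and 0.20 for their difference, -0.14 and -0.04 for cre under vehicle, and -0.02 and 0.12 for cre under AA14. With upper quartile size factors the median in control mice was 0.06, where that of all genes was 0.11 in place of -0.02. Subunits called numbered 3 in control mice with DESeq2, with limma-voom and with the control libraries alone, where 2299, 3409 and 2266 genes were called in place of 1. DESeq2 called 1 subunit for the difference between both AA14 effects, cre minus control, and 1 for cre under AA14. The cause was not tested.

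For AA14 in cre mice small values changed sign with 1 library left out. Actr2 ranged from -0.03 without cre_AA14 2 to 0.16 without cre_vehicle 2, and was -0.05 without the 5 libraries with high Malat1. Arpc1b ranged from -0.06 without cre_vehicle 1 to 0.26 without cre_AA14 2, with -0.01 without cre_AA14 1. Arpc5 ranged from -0.03 without cre_vehicle 1 to 0.25 without cre_AA14 2, Arpc5l from -0.03 without cre_vehicle 3 to 0.12 without cre_vehicle 1, and Arpc1a from -0.13 without cre_AA14 1 to 0.02 without cre_AA14 3. Deviations from the group means had correlations of -0.56 to 0.36 between libraries of the same replicate number. These values do not settle whether the numbers pair the libraries. With the replicate block 0 subunits were called in each comparison and the medians were -0.07, 0.07, 0.11, -0.09 and 0.04 in the order above. Without the 5 libraries with high Malat1 no ctrl_AA14 library is left, so this gave no value for comparisons with that group. The fit of the groups compared only has no separate form for the difference between both AA14 effects, which uses all 4 groups.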
